A study of Homo sapiens with 30 samples.

Results

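The genes described here are 35 genes of the ATF4 and amino acid stress pathway, read by symbol among the 60656 genes of the deposited expression tables. All 35 were found, each once. They comprise 7 transcription factor genes, 6 feedback, translation and glutathione genes, 9 serine and folate genes, 7 other amino acid synthesis genes and 6 transporter genes. Poly(A) RNA of human diffuse large B-cell lymphoma cell lines was sequenced in 30 libraries of 10 groups, with 3 biological replicates a group. OCI-LY3, HT, OCI-LY19 and SUDHL5 cells were harvested 24 h after 0.2 uM doxorubicin, an anthracycline that poisons topoisomerase II, and compared with untreated cells at 0 h. OCI-LY19R cells, an OCI-LY19 derivative with acquired doxorubicin resistance, were kept in 20 nM doxorubicin until 1 week before use. They were compared with the parental sensitive OCI-LY19S cells, which were kept drug free. No untreated group at 24 h was analysed here, so drug and culture time change together in the 4 lines. OCI-LY19R is 1 derived population, so its values describe that population. Each library is a bulk RNA sample, in which fewer cells of a kind and less RNA per cell cannot be told apart.

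ATF4 is a basic leucine zipper transcription factor whose translation rises when the initiation factor eIF2 is phosphorylated by the kinases that sense amino acid shortage, endoplasmic reticulum stress, double-stranded RNA or haem shortage. It pairs with C/EBP proteins on DNA elements near genes for amino acid synthesis, amino acid import, transfer RNA charging and one-carbon metabolism, and it induces feedback genes such as PPP1R15A and TRIB3. Proliferating lymphoma cells use these genes to supply amino acids and one-carbon units for growth. The libraries measure RNA, and ATF4 protein was not measured.

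The element that ATF4 and C/EBP proteins share has the core TGATGNAA, which was searched on both strands from 250 bases before to 50 bases after the transcription start in RefSeq promoters (GRCh38.p14). Of the 35 genes, 28 had a promoter in that table, and 9 of these 28 (32.1%) held a match. Among all 27305 genes in the table, 1217 (4.46%) held one. Some genes have several listed starts, and counted by window 11 of 49 windows of these genes (22.4%) held a match, against 1270 of all 35116 windows (3.62%). The 9 were ATF3, CEBPG, CHAC1, MTHFD1L, ASNS, SLC3A2, SLC7A1, SLC1A5 and SLC1A4. The promoters of 4 genes with different roles are shown because the results below turn on how differently such genes behaved. CHAC1 and ASNS stood far above their replicates in single libraries, ATF3 was higher in treated cells of 3 lines, and SLC1A5 was lower in treated cells of 3 lines. Each is printed 5′ to 3′ on the strand of its gene, in lower case, with the match in capitals. The windows are chr1:212565157-212565456 (plus strand) for ATF3, chr15:40953221-40953520 (plus strand) for CHAC1, chr7:97872359-97872658 (minus strand) for ASNS and chr19:46784765-46785064 (minus strand) for SLC1A5. The match begins 191 bases before the start in ATF3, 209 before it in CHAC1, 68 before it in ASNS and 97 before it in SLC1A5, and the CHAC1 match lies on the opposite strand. Where a gene had several listed starts, the window with most matches was taken, so the start shown was chosen for its match. The SLC1A5 window lies inside the gene, whose 5′ end is at 46788594 in the GENCODE 29 annotation.
ATF3: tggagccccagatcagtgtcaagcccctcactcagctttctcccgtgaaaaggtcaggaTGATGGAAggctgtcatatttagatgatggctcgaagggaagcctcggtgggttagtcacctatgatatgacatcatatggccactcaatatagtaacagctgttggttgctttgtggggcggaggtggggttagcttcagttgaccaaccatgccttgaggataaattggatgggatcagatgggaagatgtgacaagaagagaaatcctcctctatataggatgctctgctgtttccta
CHAC1: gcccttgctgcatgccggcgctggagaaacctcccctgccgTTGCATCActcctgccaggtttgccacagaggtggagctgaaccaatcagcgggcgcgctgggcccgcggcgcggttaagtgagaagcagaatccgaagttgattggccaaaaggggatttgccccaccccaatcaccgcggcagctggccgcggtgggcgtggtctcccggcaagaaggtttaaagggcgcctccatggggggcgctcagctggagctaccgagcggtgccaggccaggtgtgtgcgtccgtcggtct
ASNS: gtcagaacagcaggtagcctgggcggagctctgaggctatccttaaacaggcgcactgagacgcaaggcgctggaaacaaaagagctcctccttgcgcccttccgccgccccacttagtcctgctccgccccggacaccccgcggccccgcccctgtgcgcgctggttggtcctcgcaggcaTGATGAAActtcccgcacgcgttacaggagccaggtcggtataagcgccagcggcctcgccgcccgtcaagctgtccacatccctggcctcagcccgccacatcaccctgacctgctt
SLC1A5: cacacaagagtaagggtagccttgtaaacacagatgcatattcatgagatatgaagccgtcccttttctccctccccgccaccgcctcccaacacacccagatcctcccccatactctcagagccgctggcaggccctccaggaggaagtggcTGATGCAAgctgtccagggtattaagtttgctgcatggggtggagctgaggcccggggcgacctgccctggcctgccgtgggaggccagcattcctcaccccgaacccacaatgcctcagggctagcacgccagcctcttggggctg
A match says only that these letters lie in the window, and binding was not measured.

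Read totals recovered from the FPKM values ranged from 16067405 to 38337869 in the 24 libraries of the 4 lines. They ranged from 18354091 to 121769119 in the 6 libraries of OCI-LY19R and OCI-LY19S. None of 5 B-cell markers (MS4A1, CD79A, CD79B, PAX5 and CD22) stayed below 1 FPKM in any group, and their summed level was 178 to 1444 FPKM per library. Summed levels of 7 T and NK cell markers were 0.364 to 18.9 FPKM, those of 6 myeloid markers 0.0691 to 21.1 FPKM and those of 7 stromal, epithelial and endothelial markers 0.0414 to 4.96 FPKM. The T and NK sum was 16.5 to 18.9 FPKM in treated and 4.31 to 4.94 FPKM in untreated SUDHL5 libraries. In OCI-LY19 it was 4.92 to 6.48 FPKM treated and 6.83 to 7.45 FPKM untreated. CD3D, CD3E and CD3G were at 0 in those libraries, and NKG7 averaged 5.6 FPKM treated and 7.1 FPKM untreated. In OCI-LY19R the sum was 13.2 to 17.4 FPKM, and in OCI-LY19S 10.4 to 12.5 FPKM, with NKG7 means of 15.3 and 11.6 FPKM. For myeloid markers the sum was 8.16 to 17.9 FPKM in OCI-LY19R and 5.2 to 8.04 FPKM in OCI-LY19S. The myeloid sum was 10.2 to 21.1 FPKM in treated and 3.38 to 4.24 FPKM in untreated OCI-LY19 libraries, and the B-cell sum was 647 to 814 FPKM in treated and 1212 to 1444 FPKM in untreated OCI-LY3 libraries. Their part in the results was not tested.

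Several libraries stood apart over these genes. In OCI-LY19S replicate 1, the level was the highest of the 3 replicates for 27 of the 30 genes tested, against 44.6% of all genes tested. Its median log2 difference from the mean of the other 2 replicates was 0.88 over the 30 genes and 0.02 over all genes. At least 1 log2 unit above its replicates were 14 of the 30 genes, against 1.72% of all genes. In HT after doxorubicin, replicate 3 was the highest of 3 for 20 of 31 genes (30.7% of all genes) and lay at least 1 log2 unit above for 3 of them (0.238% of all genes). Replicate 2 of OCI-LY19 after doxorubicin was the highest for 23 of 31 genes (34.9% of all genes), and replicate 1 of OCI-LY19R for 24 of 30 genes (34.7%). Some results that rest on OCI-LY19S replicate 1 or on treated HT replicate 3 are given with and without that library. These are the counts of calls over the whole set and over the serine and folate genes, the median changes and named calls. Other counts are given with all libraries only. Among them are separated libraries, unadjusted p-values, differences between lines, the transporter genes, lists of other genes and the authors' deposited table.

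**Figure D1:**
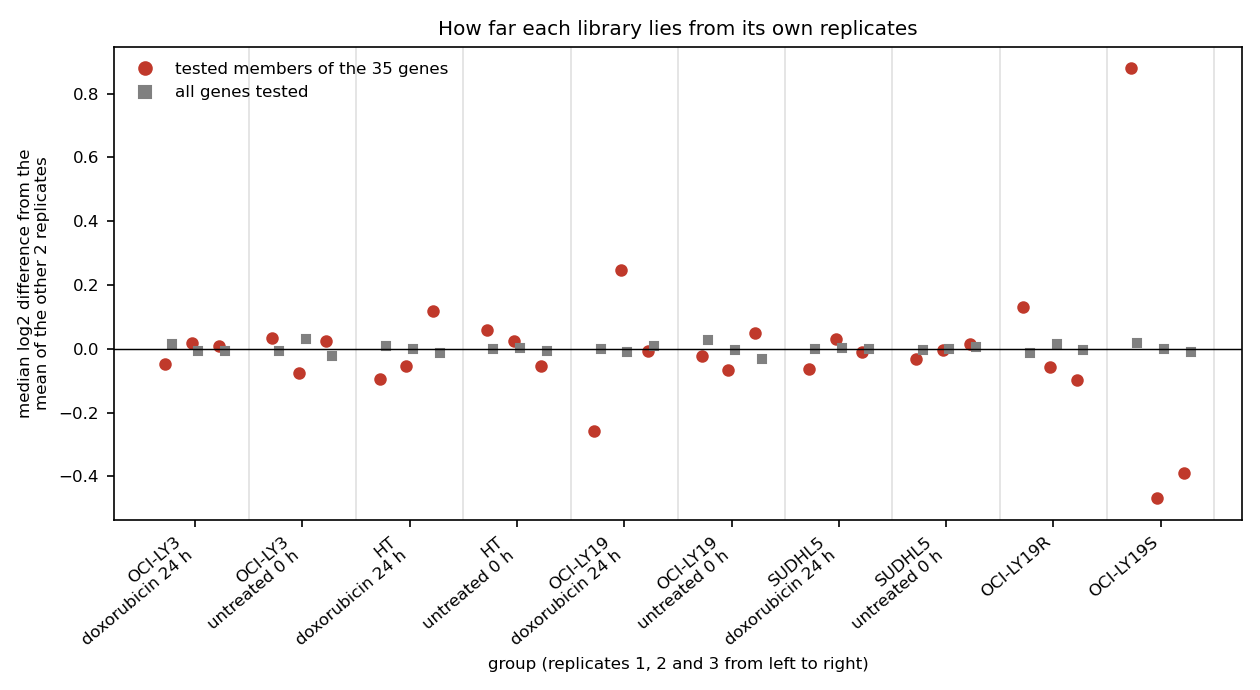
Median log2 difference between each library and the mean of the other 2 replicates of its group, on log2(FPKM + 1), over the tested members of the 35 genes (red circles) and over all genes tested (grey squares). OCI-LY19S replicate 1 lies at 0.88 over the 30 tested members, whereas its value over all genes is 0.02.

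Before treatment the 4 lines differed widely in these genes. Levels are FPKM, which are scaled to gene length. A gene was tested if it reached 1 FPKM in at least 3 libraries of its table, which 31 of the 35 did in the table of the 4 lines and 30 in that of OCI-LY19R and OCI-LY19S. The untreated level differed among the lines for 31 of 31 tested genes, where 90.5% of all genes tested did (limma F test, Benjamini-Hochberg adjusted p below 0.05), so the share is near the background. ATF4 itself averaged 102 ± 12 FPKM in OCI-LY3, 115 ± 7.4 FPKM in HT, 148 ± 9.8 FPKM in OCI-LY19 and 106 ± 2.5 FPKM in SUDHL5 (mean ± SD, n = 3 each). OCI-LY19 was above each of the other lines (adjusted p at most 0.000495), and no difference among the other 3 passed the test (adjusted p from 0.0675 to 0.502).

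Against each other line, more of these genes were higher in untreated OCI-LY19 than lower. Against OCI-LY19, HT had 1 of the 31 genes higher and 21 lower, where 35.8% of all genes were higher and 28.6% lower. OCI-LY3 had 3 higher and 17 lower than OCI-LY19 (all genes 25.8% and 37%). OCI-LY19 had 19 higher and 10 lower than SUDHL5 (all genes 38.8% and 32.1%). HT had 6 higher and 17 lower than SUDHL5 (all genes 39.9% and 27.1%), and OCI-LY3 had 9 higher and 12 lower than SUDHL5 (all genes 30.3% and 35.7%). OCI-LY3 against HT gave 14 higher and 4 lower (all genes 21.5% and 40.6%).

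Several genes of the pathway were close to silent in some lines. PHGDH, which starts serine synthesis from a glycolytic intermediate, was 0.0358 ± 0.048 FPKM in OCI-LY3 and 5.69 ± 0.45 FPKM in HT. It was 38.3 ± 5.3 FPKM in OCI-LY19 and 33.1 ± 0.5 FPKM in SUDHL5, and the difference between these 2 lines did not pass the test (adjusted p = 0.279). ASS1, which makes argininosuccinate for arginine synthesis, was 9.16 ± 3.3 FPKM in OCI-LY19 and at most 0.139 FPKM in any untreated library of the other 3 lines. ALDH1L2, a mitochondrial folate enzyme, was 4.42 ± 0.29 FPKM in SUDHL5 and below 0.1 FPKM in the untreated libraries of the rest. CHAC1, which degrades glutathione, was 7.49 ± 0.66 FPKM in SUDHL5, whereas its untreated group means in the other lines lay between 0.263 and 1.19 FPKM. The highest untreated means of the 35 genes were in OCI-LY19, with 158 ± 3.4 FPKM for the transporter gene SLC7A5 and 156 ± 24 FPKM for the translation repressor gene EIF4EBP1.

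**Figure D2:**
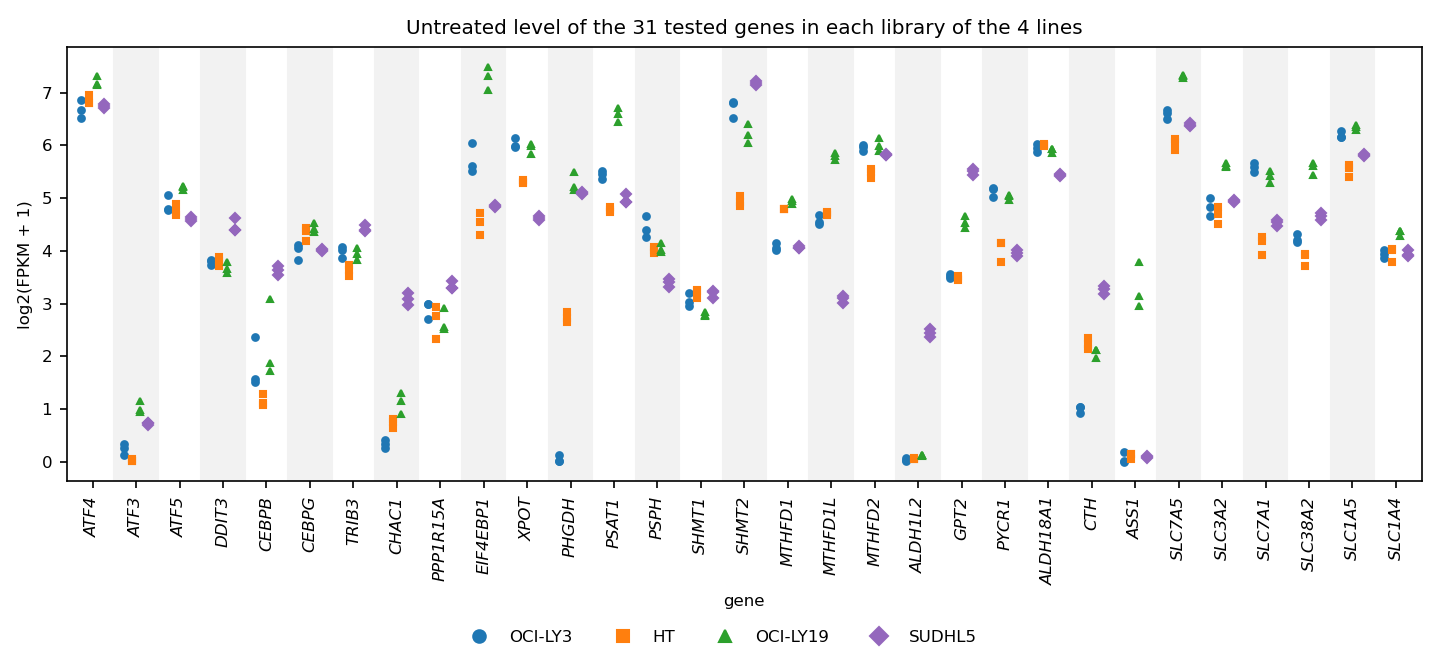
Level of the 31 tested genes in each of the 3 untreated libraries of OCI-LY3, HT, OCI-LY19 and SUDHL5, as log2(FPKM + 1). PHGDH is near 0 in OCI-LY3, ASS1 is near 0 outside OCI-LY19 and ALDH1L2 is near 0 outside SUDHL5.

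After doxorubicin the 4 lines divided in direction. In OCI-LY19 most of these genes fell, and 3 stress genes rose strongly. In SUDHL5 most also fell, and ATF3, which was tested only because of its level in treated cells, was the gene called higher. OCI-LY3 had calls in both directions. HT had more calls up than down, as did all genes tested there, and its counts were near that background. Of the 31 genes tested in OCI-LY19, 5 were higher and 22 lower, where 34.5% of all genes were higher and 23.7% lower. In SUDHL5, 1 was higher and 19 lower, against 18.6% and 19.9% of all genes. In OCI-LY3, 8 were higher and 11 lower, against 40.4% and 14.3%. In HT, 9 were higher and 3 lower, against 22.9% and 9.41%. A call is a Benjamini-Hochberg adjusted p below 0.05 over the 17645 genes tested, from limma on log2(FPKM + 1). Without replicate 3 of the treated HT libraries, 5 of the 31 genes were higher in HT and 3 lower (all genes 19% and 6.66%). Without replicate 2 of the treated OCI-LY19 libraries, 5 were higher and 22 lower in OCI-LY19. The shares of all genes in that last fit are not given here, so its counts have no background beside them.

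The median log2 change over the 31 tested genes was -0.70 in OCI-LY19, where the median of all genes tested was 0.08. It was -0.48 in SUDHL5 (all genes 0.001), 0.03 in OCI-LY3 (all genes 0.16) and 0.11 in HT (all genes 0.06). Without treated replicate 3 of HT it was 0.07 there (all genes 0.07). In OCI-LY3 the median of all genes depended on the scaling. With median-of-ratios scaling it was 0.01, the median of the 31 genes was -0.050, and the calls among them were 3 higher and 13 lower. Over all genes tested in OCI-LY3 the calls were 4737 higher and 4461 lower with that scaling, against 7128 higher and 2522 lower as deposited. In HT the scaling gave 8 of the 31 genes higher and 6 lower, and over all genes 2896 higher and 2287 lower, against 4038 and 1661 as deposited. It left the OCI-LY19 calls at 5 higher and 22 lower (all genes 5266 and 4886). In SUDHL5 it gave 1 higher and 18 lower (all genes 3562 and 3315). Quantile normalization moved all genes of OCI-LY19 to 4426 higher and 5482 lower, against 6093 and 4184 as deposited, and left 5 and 22 of the 31 genes.

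The libraries separated in the same way. In OCI-LY19 all treated libraries lay above all untreated ones for 6 of the 31 genes and below them for 22, as was so for 36.7% and 24.5% of all genes. In SUDHL5 they lay above for 3 and below for 21 (all genes 29.3% and 30.6%). They lay above for 11 and below for 12 in OCI-LY3 (all genes 42.5% and 14.9%), and above for 13 and below for 3 in HT (all genes 29.8% and 12.5%).

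**Figure D3:**
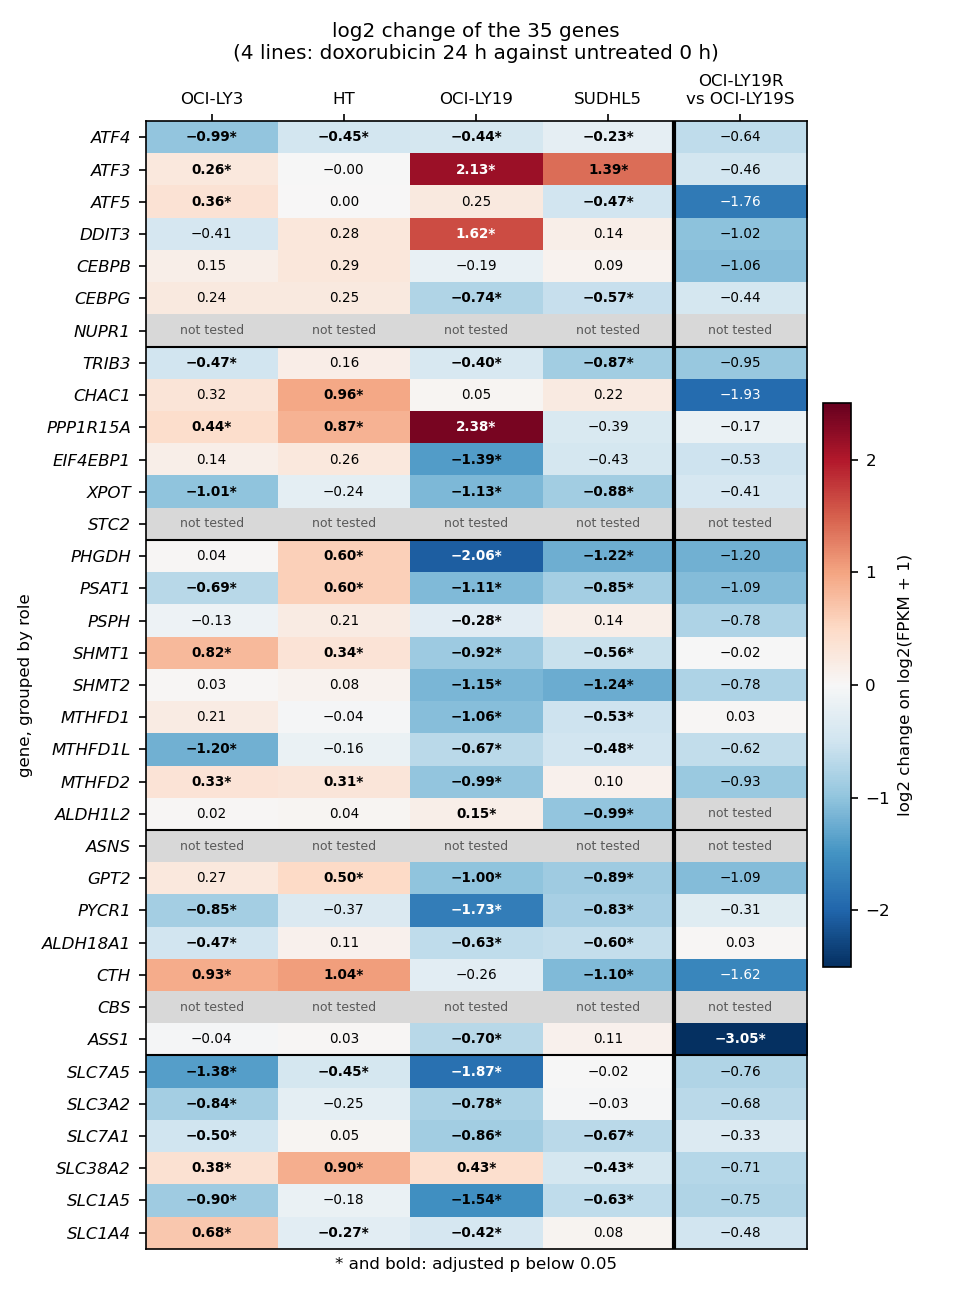
log2 change of each of the 35 genes on log2(FPKM + 1), ordered by role, for doxorubicin 24 h against untreated 0 h in the 4 lines and for OCI-LY19R against OCI-LY19S. Bold values with an asterisk have an adjusted p below 0.05. Called values in the OCI-LY19 and SUDHL5 columns are mostly blue (lower), for 22 and 19 genes, with ATF3 red (higher) in both, whereas called values of both colours stand in the OCI-LY3 and HT columns.

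Among the transcription factors, ATF4 RNA was lower after doxorubicin in all 4 lines, and no other of the 35 genes was called lower in all 4. In OCI-LY3 it had 45, 56.1 and 51.5 FPKM in treated and 115, 90.4 and 100.4 FPKM in untreated libraries (log2 change -0.99 ± 0.08, adjusted p = 5.71e-09). HT had 83.8, 81.3 and 84.9 FPKM in treated and 123.0, 110.4 and 110.2 FPKM in untreated libraries (log2 change -0.45 ± 0.08, adjusted p = 0.000259). OCI-LY19 had 107, 113 and 105 FPKM in treated and 141, 143 and 159 FPKM in untreated libraries (log2 change -0.44 ± 0.08, adjusted p = 8.44e-05). Treated and untreated libraries did not overlap in any of these lines, and every treated library was the lower one. SUDHL5 had 91.6, 91.2 and 88.6 FPKM in treated and 104, 106 and 109 FPKM in untreated libraries (log2 change -0.23 ± 0.08, adjusted p = 0.0295), also with no overlap. The fall was larger in OCI-LY3 than in each of the other lines (adjusted p of the differences at most 0.00148), and no pair among HT, OCI-LY19 and SUDHL5 passed the test (adjusted p from 0.13 to 0.963). The SUDHL5 call was lost with median-of-ratios scaling (adjusted p = 0.0877), with quantile normalization (0.138) and when any of 5 of its 6 libraries was left out (0.0566 to 0.0902). In OCI-LY19 it was lost with quantile normalization (adjusted p = 0.103). The share of all genes called lower in all 4 lines was not computed.

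ATF3, a stress-induced basic leucine zipper factor, moved the other way. It reached the level needed for testing through the treated OCI-LY19 and SUDHL5 libraries, where it was high, so being tested depended on those levels. OCI-LY19 had 6.76, 7.83 and 9.38 FPKM in treated and 1.22, 0.985 and 0.911 FPKM in untreated libraries (log2 change 2.13 ± 0.09, adjusted p = 2.35e-13). SUDHL5 had 3.1, 3.33 and 3.52 FPKM in treated and 0.621, 0.658 and 0.67 FPKM in untreated libraries (log2 change 1.39 ± 0.09, adjusted p = 3.18e-10). In both lines all treated libraries lay above all untreated ones, and the rise was larger in OCI-LY19 (difference of the changes 0.75 ± 0.12, adjusted p = 8.28e-05). OCI-LY3 had 0.334, 0.402 and 0.525 FPKM in treated and 0.0851, 0.263 and 0.203 FPKM in untreated libraries (log2 change 0.26 ± 0.09, adjusted p = 0.0158). That small rise was lost with median-of-ratios scaling (adjusted p = 0.0607), with quantile normalization (0.854), without untreated replicate 1 (0.0901) and without treated replicate 3 (0.0794). In HT the gene stayed at or below 0.0382 FPKM in all 6 libraries.

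DDIT3, which encodes the stress factor CHOP, rose in OCI-LY19, with 34.2, 32.1 and 51.1 FPKM in treated and 11.6, 11 and 12.8 FPKM in untreated libraries (log2 change 1.62 ± 0.24, adjusted p = 1.01e-05). The groups did not overlap. Its change there exceeded the change in each other line (adjusted p at most 0.00335), and none of the other 3 lines passed the test. HT had 12.7, 10.8 and 29.1 FPKM in treated and 13, 13.8 and 12 FPKM in untreated libraries, so 1 treated library lay far above the rest. ATF5, a factor that like ATF4 is controlled at translation, had 27.9, 43.1 and 41.2 FPKM in treated and 26.9, 26.5 and 32.1 FPKM in untreated libraries in OCI-LY3 (log2 change 0.36 ± 0.12, adjusted p = 0.0173) and 15.5, 17.7 and 16.4 FPKM in treated and 22.8, 24 and 23.2 FPKM in untreated libraries in SUDHL5 (log2 change -0.47 ± 0.12, adjusted p = 0.00433). It rose in OCI-LY3 and fell in SUDHL5. The OCI-LY3 rise was lost with median-of-ratios scaling (0.09, adjusted p = 0.595), in the fit of that line alone (adjusted p = 0.102) and without any of 4 of its libraries (adjusted p from 0.0625 to 0.113). CEBPG, a C/EBP partner of ATF4, fell in OCI-LY19 to 12 ± 1.7 FPKM, against 20.6 ± 1.2 FPKM untreated, and in SUDHL5 to 9.89 ± 0.27 FPKM, against 15.2 ± 0.26 FPKM untreated. In HT it had 23.3 ± 4.4 FPKM treated and 19.2 ± 1.8 FPKM untreated, which passed the test with the replicate block (adjusted p = 0.0255) and not without it (0.0871). CEBPB, another C/EBP member, passed the test in no line.

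Among the feedback, translation and glutathione genes, PPP1R15A rose in 3 lines. Its product GADD34 recruits a phosphatase that removes the phosphate from eIF2. OCI-LY19 had 30.3, 28.4 and 37.6 FPKM in treated and 4.86, 6.52 and 4.7 FPKM in untreated libraries (log2 change 2.38 ± 0.16, adjusted p = 2.22e-10). HT had 8.98, 9.72 and 13.6 FPKM in treated and 5.77, 6.67 and 3.99 FPKM in untreated libraries (log2 change 0.87 ± 0.16, adjusted p = 0.000356). In OCI-LY3 it had 8.7, 9.04 and 9.58 FPKM in treated and 5.51, 6.96 and 6.94 FPKM in untreated libraries (log2 change 0.44 ± 0.16, adjusted p = 0.0233). The treated libraries lay above the untreated ones in these 3 lines. SUDHL5 had 6.78 ± 0.76 FPKM treated and 9.14 ± 0.58 FPKM untreated, which did not pass the test (log2 change -0.39 ± 0.16, adjusted p = 0.0619). The OCI-LY3 rise was lost with median-of-ratios scaling (0.20, adjusted p = 0.326), with quantile normalization (0.267), with no filter on low genes (0.0538) and without untreated replicate 1 (0.111) or treated replicate 3 (0.0681).

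CHAC1 had 1.49, 0.788 and 6.63 FPKM in treated and 0.761, 0.677 and 0.555 FPKM in untreated libraries in HT (log2 change 0.96 ± 0.32, adjusted p = 0.0254), and replicate 3 of the treated libraries was far above the other 5. Without it the change was 0.34 ± 0.16 (adjusted p = 0.125). The call was also lost without any 1 untreated library (adjusted p from 0.0504 to 0.069), with no filter on low genes (0.0621) and with quantile normalization (0.0803). In the other 3 lines CHAC1 passed no test. TRIB3, a pseudokinase that restrains ATF4, fell in SUDHL5 (log2 change -0.87 ± 0.09, adjusted p = 2.51e-07), in OCI-LY3 (log2 change -0.47 ± 0.09, adjusted p = 0.000179) and in OCI-LY19 (log2 change -0.40 ± 0.09, adjusted p = 0.000752). In HT it had 12.9 ± 0.16 FPKM treated and 11.4 ± 0.88 FPKM untreated, with no call.

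XPOT, which exports transfer RNA from the nucleus, fell in 3 lines. OCI-LY3 had 30.6, 37.7 and 26.9 FPKM in treated and 69.4, 62.1 and 61.7 FPKM in untreated libraries (log2 change -1.01 ± 0.09, adjusted p = 2.25e-08). In OCI-LY19 the change was -1.13 ± 0.09, in SUDHL5 it was -0.88 ± 0.09, and in HT it was -0.24 ± 0.09, which did not pass the test. EIF4EBP1, whose product holds back cap-dependent translation, had 47.4, 93.2 and 45.1 FPKM in treated and 132, 179 and 158 FPKM in untreated libraries in OCI-LY19 (log2 change -1.39 ± 0.20, adjusted p = 7.11e-06). Treated replicate 2 stood above the other treated libraries and still below every untreated one. The other 3 lines gave no call for EIF4EBP1.

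**Figure D4:**
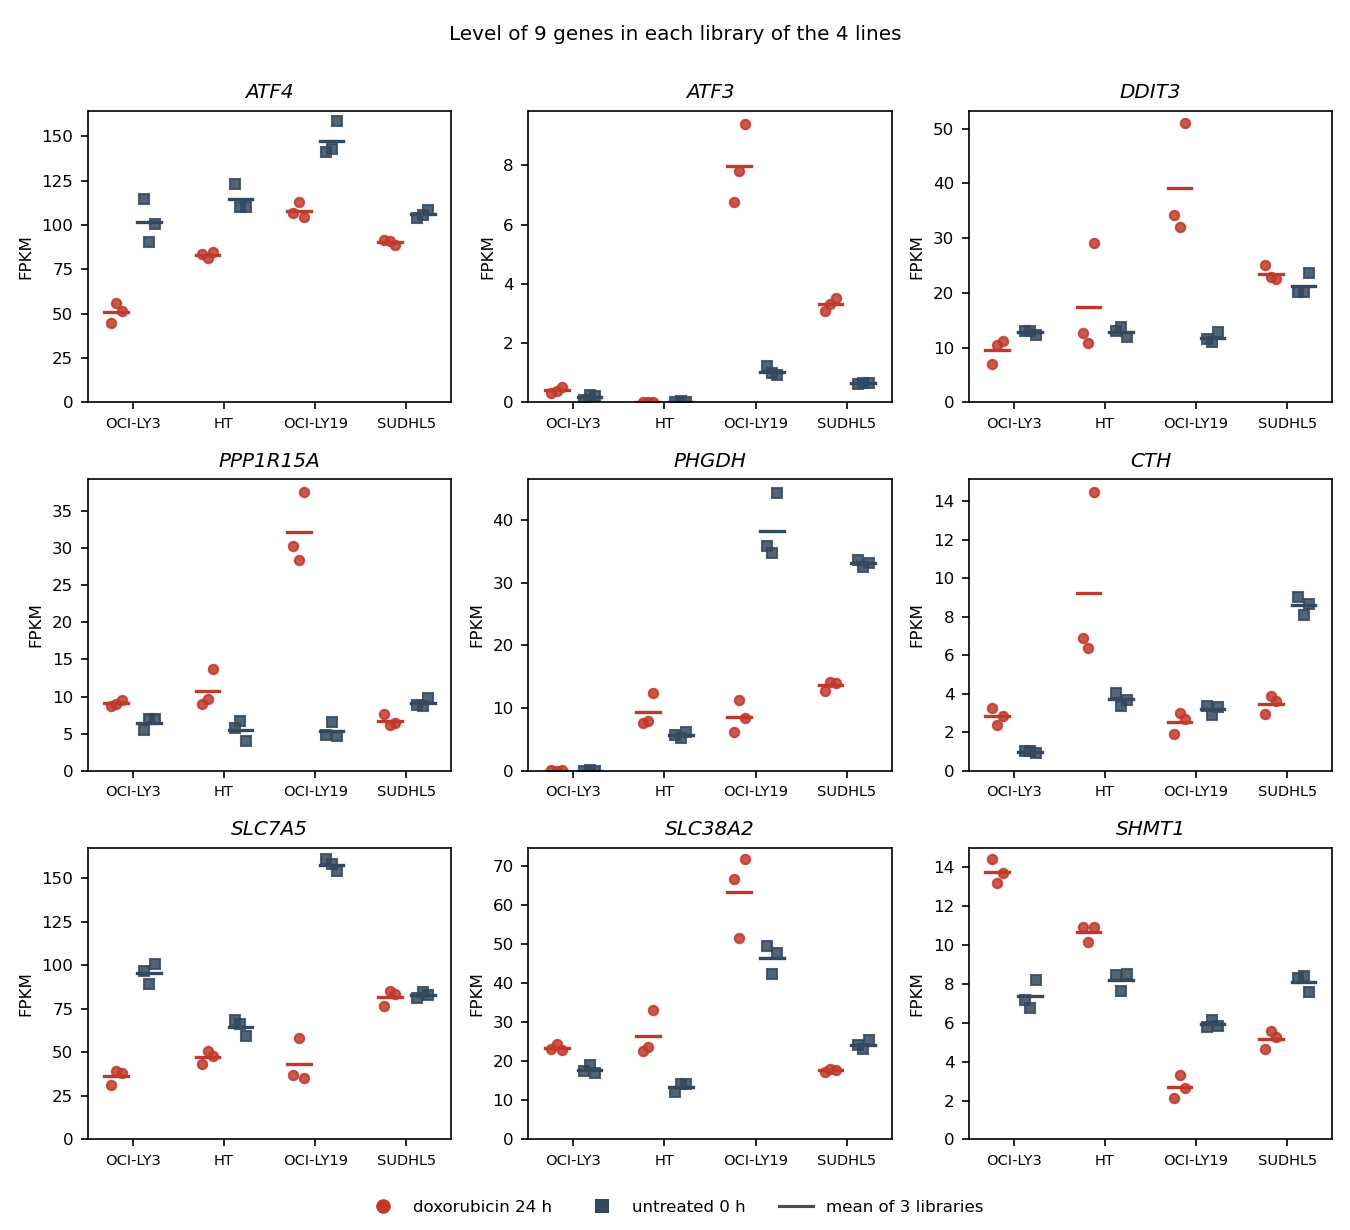
FPKM in each library of 9 genes, with treated libraries (doxorubicin 24 h, red circles) left of untreated libraries (0 h, dark squares) in each line and bars at the mean of 3 libraries. ATF4 is lower in the treated libraries of every line, PHGDH falls in OCI-LY19 and SUDHL5, and DDIT3 and CTH in HT show 1 treated library above the others.

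The serine and folate genes fell together in OCI-LY19, where 8 of 9 were lower (23.7% of all genes), and in SUDHL5, where 7 of 9 were lower (19.9% of all genes). In OCI-LY3 2 of the 9 were higher and 2 lower (all genes 40.4% and 14.3%). In HT 4 were higher and 0 lower (all genes 22.9% and 9.41%), and without treated replicate 3 of HT 1 was higher, SHMT1, and 0 lower (all genes 19% and 6.66%). PHGDH had 6.14, 11.3 and 8.41 FPKM in treated and 35.8, 34.6 and 44.3 FPKM in untreated libraries in OCI-LY19 (log2 change -2.06 ± 0.16, adjusted p = 1.88e-09). SUDHL5 had 12.7, 14.2 and 14 FPKM in treated and 33.6, 32.6 and 33.1 FPKM in untreated libraries (log2 change -1.22 ± 0.16, adjusted p = 4.76e-06). All treated libraries were below all untreated ones in both lines. HT had 7.61, 8 and 12.5 FPKM in treated and 5.66, 5.26 and 6.16 FPKM in untreated libraries (log2 change 0.60 ± 0.16, adjusted p = 0.00673), with every treated library above every untreated one. PSAT1, the next enzyme of serine synthesis, had 33.7, 32.3 and 61.9 FPKM in treated and 25.8, 26.4 and 27.5 FPKM in untreated libraries in HT (log2 change 0.60 ± 0.17, adjusted p = 0.0118), where treated replicate 3 was the highest. It fell in OCI-LY19 (log2 change -1.11 ± 0.17, adjusted p = 1.68e-05), in SUDHL5 (log2 change -0.85 ± 0.17, adjusted p = 0.000565) and in OCI-LY3 (log2 change -0.69 ± 0.17, adjusted p = 0.00217). Without treated replicate 3 the HT calls of PHGDH (0.40, adjusted p = 0.0553) and PSAT1 (0.30, adjusted p = 0.0758) were lost. PSPH, the last enzyme of the branch, was called in OCI-LY19 alone (log2 change -0.28 ± 0.09, adjusted p = 0.0113), and that call was lost without untreated replicate 3 (adjusted p = 0.0601) and without treated replicate 1 (0.0735).

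SHMT1 and SHMT2 convert serine to glycine and a one-carbon unit, SHMT1 in the cytosol and SHMT2 in mitochondria. SHMT2 had 57.9, 61.8 and 61.7 FPKM in treated and 148, 144 and 140.2 FPKM in untreated libraries in SUDHL5 (log2 change -1.24 ± 0.10, adjusted p = 1.13e-08). OCI-LY19 gave -1.15 ± 0.10, and no call was made in OCI-LY3 or HT. SHMT1 had 14.4, 13.2 and 13.7 FPKM in treated and 7.18, 6.79 and 8.22 FPKM in untreated libraries in OCI-LY3 (log2 change 0.82 ± 0.09, adjusted p = 3.01e-07). It rose there and in HT (log2 change 0.34 ± 0.09, adjusted p = 0.00676), and it fell in OCI-LY19 (log2 change -0.92 ± 0.09, adjusted p = 5.38e-08) and SUDHL5 (log2 change -0.56 ± 0.09, adjusted p = 5.41e-05). The rise in HT was just lost with quantile normalization (adjusted p = 0.0515).

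The mitochondrial formate enzyme MTHFD1L fell in OCI-LY3, with 8.95, 11.1 and 8.31 FPKM in treated and 24.8, 22.3 and 21.8 FPKM in untreated libraries (log2 change -1.20 ± 0.09, adjusted p = 1.44e-09). OCI-LY19 gave -0.67 ± 0.09 and SUDHL5 -0.48 ± 0.09, both called, and HT gave no call. MTHFD2, the mitochondrial methylenetetrahydrofolate dehydrogenase, fell in OCI-LY19 (log2 change -0.99 ± 0.10, adjusted p = 7.38e-08) and rose in OCI-LY3 (log2 change 0.33 ± 0.10, adjusted p = 0.0078) and HT (log2 change 0.31 ± 0.10, adjusted p = 0.0224). With median-of-ratios scaling the rises of MTHFD2 were lost in OCI-LY3 (0.06, adjusted p = 0.696) and HT (0.23, adjusted p = 0.139), and the HT rise was lost without treated replicate 3 (adjusted p = 0.161) or untreated replicate 2 (0.0935). MTHFD1, the cytosolic enzyme of several folate steps, fell in OCI-LY19 (log2 change -1.06 ± 0.10, adjusted p = 1.82e-08) and SUDHL5 (log2 change -0.53 ± 0.10, adjusted p = 0.000216). ALDH1L2 had 1.76, 1.7 and 1.71 FPKM in treated and 4.44, 4.13 and 4.7 FPKM in untreated libraries in SUDHL5 (log2 change -0.99 ± 0.05, adjusted p = 1.24e-11). The treated level was lower in all 3 libraries. The gene passed the filter on low levels through SUDHL5 alone. In OCI-LY19 it had 0.25, 0.157 and 0.221 FPKM in treated and 0.0986, 0.074 and 0.0969 FPKM in untreated libraries (log2 change 0.15 ± 0.05, adjusted p = 0.0144), a call at very low levels whose sign turned with quantile normalization (-0.04).

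Of the other amino acid synthesis genes, CTH, which makes cysteine from cystathionine, rose in 2 lines and fell in 1. HT had 6.88, 6.38 and 14.5 FPKM in treated and 4.07, 3.39 and 3.68 FPKM in untreated libraries (log2 change 1.04 ± 0.19, adjusted p = 0.000365). OCI-LY3 had 3.24, 2.39 and 2.86 FPKM in treated and 1.04, 1.05 and 0.907 FPKM in untreated libraries (log2 change 0.93 ± 0.19, adjusted p = 0.000336). SUDHL5 had 2.94, 3.91 and 3.64 FPKM in treated and 9.05, 8.11 and 8.66 FPKM in untreated libraries (log2 change -1.10 ± 0.19, adjusted p = 0.000114). The groups did not overlap in any of these 3 lines, and without treated replicate 3 the HT rise was 0.70 ± 0.12 (adjusted p = 0.00045). GPT2, the mitochondrial alanine aminotransferase, had 23.9, 23.2 and 23.5 FPKM in treated and 44.5, 42.6 and 46.2 FPKM in untreated libraries in SUDHL5 (log2 change -0.89 ± 0.12, adjusted p = 8.78e-06). It also fell in OCI-LY19 (log2 change -0.999 ± 0.12, adjusted p = 8.3e-07) and rose in HT (log2 change 0.50 ± 0.12, adjusted p = 0.00365).

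PYCR1 and ALDH18A1, which act at the end and the start of proline synthesis, fell together in OCI-LY3, OCI-LY19 and SUDHL5. PYCR1 had 9.17, 11.8 and 6.14 FPKM in treated and 31.8, 32.2 and 30.3 FPKM in untreated libraries in OCI-LY19 (log2 change -1.73 ± 0.17, adjusted p = 4.68e-08). Its change was -0.85 ± 0.17 in OCI-LY3 and -0.83 ± 0.17 in SUDHL5. ALDH18A1 changed by -0.63 ± 0.06 in OCI-LY19, -0.60 ± 0.06 in SUDHL5 and -0.47 ± 0.06 in OCI-LY3. HT gave no call for either gene. ASS1 had 4.37, 4.84 and 6.13 FPKM in treated and 6.75, 7.87 and 12.9 FPKM in untreated libraries in OCI-LY19 (log2 change -0.70 ± 0.15, adjusted p = 0.000555), and it passed the filter on low levels through OCI-LY19 alone. The fall was not called with a pseudocount of 0.1 (adjusted p = 0.111).

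Of the 6 transporter genes, 5 were lower and 1 higher in OCI-LY19 (all genes 23.7% and 34.5%), and 4 were lower and 2 higher in OCI-LY3 (all genes 14.3% and 40.4%). In HT 2 were lower and 1 higher (all genes 9.41% and 22.9%), and in SUDHL5 3 were lower (all genes 19.9%). SLC7A5 encodes LAT1, an importer of large neutral amino acids, and SLC3A2 its heavy chain. OCI-LY19 had 37, 58.3 and 35.4 FPKM in treated and 161, 158 and 154 FPKM in untreated libraries of SLC7A5 (log2 change -1.87 ± 0.13, adjusted p = 4.13e-10). OCI-LY3 had 31.3, 39.5 and 38.1 FPKM in treated and 96.9, 88.9 and 100.5 FPKM in untreated libraries (log2 change -1.38 ± 0.13, adjusted p = 4.05e-08). HT had 43.1, 50.6 and 48.1 FPKM in treated and 68.5, 66.3 and 59.3 FPKM in untreated libraries (log2 change -0.45 ± 0.13, adjusted p = 0.0125). All treated libraries lay below all untreated ones in the 3 lines, and in HT the call was lost without untreated replicate 1 (adjusted p = 0.0524) or treated replicate 1 (0.0602). SUDHL5 had 76.8, 85.4 and 83.6 FPKM in treated and 81.4, 84.4 and 83.1 FPKM in untreated libraries, with overlapping groups and no call (log2 change -0.02 ± 0.13, adjusted p = 0.946). The change in SUDHL5 differed from that in OCI-LY19 (adjusted p = 1.9e-07) and OCI-LY3 (adjusted p = 5.78e-06), whereas its difference from HT did not pass the test (adjusted p = 0.0773). SLC3A2 fell in OCI-LY3 and OCI-LY19, with changes of -0.84 ± 0.10 in OCI-LY3 and -0.78 ± 0.10 in OCI-LY19.

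SLC1A5, an importer of glutamine, had 23.8, 34.2 and 23.9 FPKM in treated and 77.5, 82.4 and 80.2 FPKM in untreated libraries in OCI-LY19 (log2 change -1.54 ± 0.12, adjusted p = 2.11e-09). OCI-LY3 had 34.9, 41.9 and 38.3 FPKM in treated and 70.1, 70.5 and 76.1 FPKM in untreated libraries (log2 change -0.90 ± 0.12, adjusted p = 3.14e-06). The groups did not overlap in either line, and the gene also fell in SUDHL5 (log2 change -0.63 ± 0.12, adjusted p = 0.00028). SLC7A1, an importer of arginine and lysine, also fell in these 3 lines, with changes of -0.86 ± 0.10 in OCI-LY19, -0.67 ± 0.10 in SUDHL5 and -0.50 ± 0.10 in OCI-LY3.

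SLC38A2, the amino-acid-responsive importer SNAT2 for small neutral amino acids, rose in 3 lines and fell in SUDHL5. HT had 22.6, 23.6 and 33.1 FPKM in treated and 12, 14.3 and 14.2 FPKM in untreated libraries (log2 change 0.90 ± 0.12, adjusted p = 1.64e-05). OCI-LY19 had 66.9, 51.6 and 71.8 FPKM in treated and 49.7, 42.4 and 47.7 FPKM in untreated libraries (log2 change 0.43 ± 0.12, adjusted p = 0.00468). OCI-LY3 had 23.1, 24.5 and 22.9 FPKM in treated and 17.5, 19 and 17 FPKM in untreated libraries (log2 change 0.38 ± 0.12, adjusted p = 0.0106). The treated libraries lay above the untreated ones in each of these, but with median-of-ratios scaling the OCI-LY3 rise was 0.12 (adjusted p = 0.484). In SUDHL5 the change was -0.43 ± 0.12, with the treated libraries below. SLC1A4, an importer of serine, alanine and cysteine, had 23.3, 23.7 and 23.6 FPKM in treated and 15.2, 13.6 and 14.3 FPKM in untreated libraries in OCI-LY3 (log2 change 0.68 ± 0.09, adjusted p = 3.64e-06). HT had 11.4, 13.3 and 10.9 FPKM in treated and 15.2, 15.5 and 12.8 FPKM in untreated libraries (log2 change -0.27 ± 0.09, adjusted p = 0.0281), with groups that overlapped. The gene rose in OCI-LY3 and fell in HT and in OCI-LY19 (log2 change -0.42 ± 0.09, adjusted p = 0.000527), and the HT call was lost when any of 4 libraries was left out (untreated 1 or 2, treated 1 or 3, adjusted p from 0.0885 to 0.129).

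The change differed among the 4 lines for 29 of the 31 tested genes (limma F test over the interaction terms), and 72.2% of all genes tested did so. CEBPB and CHAC1 were the 2 that did not pass. Between HT and OCI-LY19, 22 genes had the higher change in HT and 3 the lower, where 22.6% of all genes were called in each direction. Between HT and SUDHL5, 17 had the higher change in HT and 2 the lower (all genes 23.3% and 13.7%). Between OCI-LY3 and HT, 12 had the lower change in OCI-LY3 and 2 the higher (all genes 9.5% and 19.9%). OCI-LY19 and SUDHL5 differed too, with 8 genes higher in the change of OCI-LY19 and 12 lower (all genes 26.5% and 17.4%). Between OCI-LY3 and OCI-LY19, 15 had the higher change in OCI-LY3 and 5 the lower (all genes 29% and 18.7%). Between OCI-LY3 and SUDHL5, 13 had the higher change in OCI-LY3 and 5 the lower (all genes 34.3% and 15%). These comparisons share their groups. In 10 genes the call was up in at least 1 line and down in another, namely ATF5, PHGDH, PSAT1, SHMT1, MTHFD2, ALDH1L2, GPT2, CTH, SLC38A2 and SLC1A4. The share of all genes with such calls was not computed. PHGDH and PSAT1 were up in HT alone, and those calls were lost without treated replicate 3 of HT. With median-of-ratios scaling the OCI-LY3 rise of ATF5 and both rises of MTHFD2 were lost. For each of the 10, every such pair of lines differed in its change by the test. The pairs were picked by opposite calls in the same fit, so this adds no separate support. ALDH1L2 passed the filter through SUDHL5 alone, and its OCI-LY19 call, at no more than 0.25 FPKM, turned in sign with quantile normalization, so it does not bear on whether directions were opposite.

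The comparison of OCI-LY19R with OCI-LY19S asks how the pathway stands in cells with acquired resistance that had been off drug for 1 week. For 25 of the 30 tested genes all OCI-LY19R libraries lay below all OCI-LY19S libraries, and for 0 genes above them, as was so for 11.8% and 20.9% of all genes. The 5 genes whose libraries overlapped were ATF3, PPP1R15A, SHMT1, MTHFD1 and ALDH18A1. Of the 30, 1 gene was called lower and 0 higher, against 2.34% and 3.11% of all genes. At an unadjusted p below 0.05 there were 21 lower and 0 higher, against 8.85% and 14.6% of all genes. The median log2 change was -0.73 over the 30 genes and 0.05 over all genes tested. Without OCI-LY19S replicate 1 it was -0.37 over the genes still tested, with 0.05 over all genes, and with libraries weighted by estimated quality it was -0.41. The authors' deposited table for this comparison gives 33 of the 35 genes an adjusted p and lists 20 of them as lower in OCI-LY19R at a value below 0.05 and 0 as higher, where 5.35% and 5.15% of all genes with an adjusted p are.

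**Figure D5:**
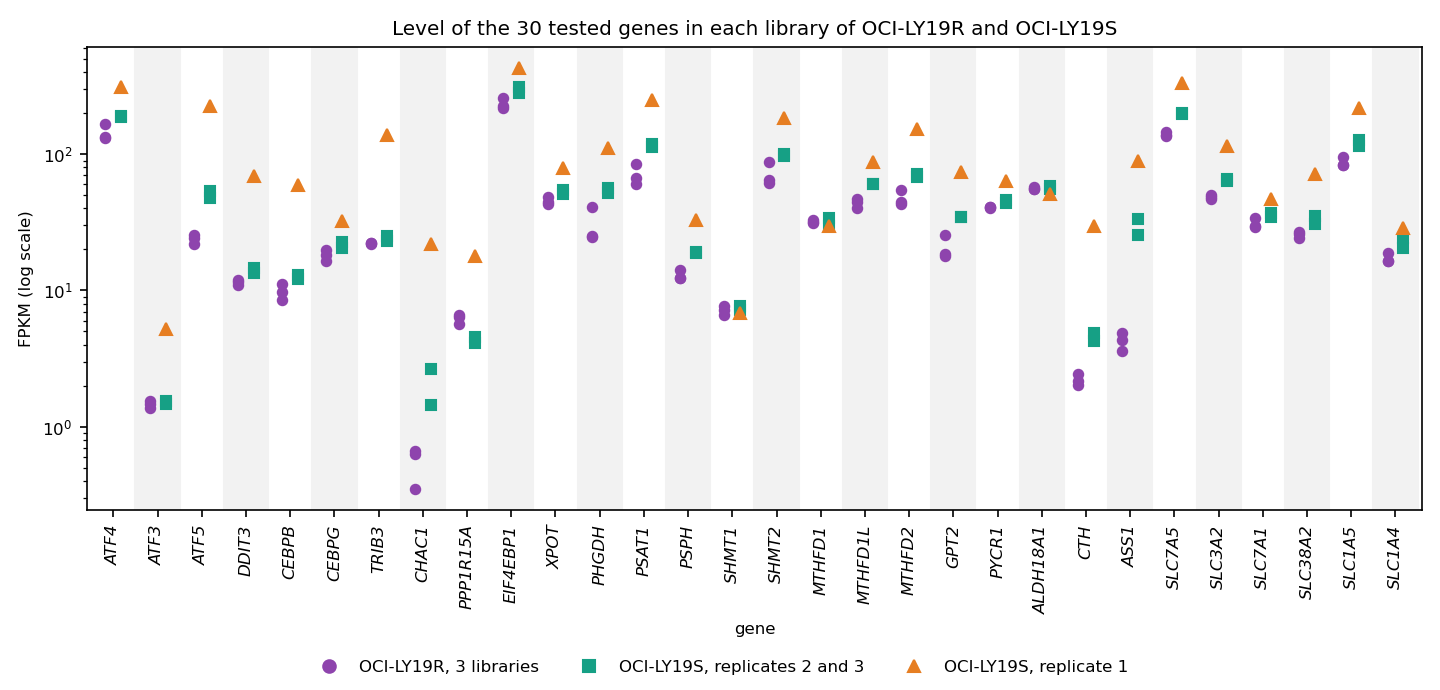
FPKM on a log scale of the 30 tested genes in each library, with OCI-LY19R (purple circles) left of OCI-LY19S, whose replicate 1 (orange triangles) is drawn apart from replicates 2 and 3 (green squares). Replicate 1 is the highest OCI-LY19S library for 27 of the 30 genes, and ASS1 is lower in all 3 OCI-LY19R libraries than in any OCI-LY19S library.

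ASS1 was the gene called. It had 4.85, 3.61 and 4.32 FPKM in OCI-LY19R and 89.1, 33.5 and 25.5 FPKM in OCI-LY19S (log2 change -3.05 ± 0.42, adjusted p = 0.0148). Every OCI-LY19R library was far below every OCI-LY19S library. Without OCI-LY19S replicate 1 the change was -2.53 ± 0.15 (adjusted p = 0.0037). The call was lost without OCI-LY19S replicate 2 (-3.22, adjusted p = 0.0637), OCI-LY19R replicate 2 (-2.96, adjusted p = 0.0932) or OCI-LY19R replicate 3 (-3.07, adjusted p = 0.0806), and it held without OCI-LY19R replicate 1 (adjusted p = 0.0466). It was also lost with no filter on low genes (adjusted p = 0.0743). Over all genes the lower calls were 2.34% with all libraries and 0.0635%, 0.144% and 0.2% in the 3 fits without a library that lost the call.

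ATF4 had 166, 134 and 131 FPKM in OCI-LY19R and 313, 186.6 and 190.2 FPKM in OCI-LY19S (log2 change -0.64 ± 0.22, adjusted p = 0.14). All OCI-LY19R libraries were below the OCI-LY19S ones, and OCI-LY19S replicate 1 stood far above the other 2. Of the tested genes, CHAC1, CTH, TRIB3, DDIT3 and CEBPB had the widest gap, as a ratio, between OCI-LY19S replicate 1 and its replicates. TRIB3 had 22.4, 22.1 and 21.8 FPKM in OCI-LY19R and 139, 23.1 and 25.1 FPKM in OCI-LY19S. DDIT3 had 11.9, 11.5 and 10.9 FPKM in OCI-LY19R and 69.3, 13.5 and 14.7 FPKM in OCI-LY19S. In these 2 genes the remaining OCI-LY19S libraries were close to OCI-LY19R. CHAC1 had 0.627, 0.664 and 0.349 FPKM in OCI-LY19R and 21.8, 1.45 and 2.63 FPKM in OCI-LY19S. CTH had 2.17, 2.01 and 2.42 FPKM in OCI-LY19R and 29.8, 4.27 and 4.85 FPKM in OCI-LY19S. In CHAC1 and CTH the remaining OCI-LY19S libraries were still well above OCI-LY19R. CHAC1 in OCI-LY19S replicate 1 was 10.7 times the mean of the other 2 libraries, CTH was 6.54 times and TRIB3 was 5.75 times that mean, whereas ATF4 itself was 1.66 times. In treated HT replicate 3, CHAC1 was 5.83 times and DDIT3 2.48 times the mean of the other 2 treated libraries, and ATF4 was 1.03 times.

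Without OCI-LY19S replicate 1, 11 of the 29 genes still tested were lower in OCI-LY19R and 1 was higher, against 3.45% and 4.94% of all genes. CHAC1 reached the filter through OCI-LY19S with that library, and not without it. The 11 were ASS1, ATF5 (-1.05), CTH (-0.80), GPT2 (-0.73), PSAT1 (-0.72), MTHFD2 (-0.56), PSPH (-0.53), SLC7A5 (-0.51), SLC1A5 (-0.46), MTHFD1L (-0.45) and SLC3A2 (-0.41). PPP1R15A was the one higher gene (0.44 ± 0.09, adjusted p = 0.0423). It had 5.66, 6.4 and 6.63 FPKM in OCI-LY19R and 18, 4.57 and 4.09 FPKM in OCI-LY19S, so its direction without that library was the reverse of that with it (log2 change -0.17 ± 0.47, adjusted p = 0.857). ATF4 without the library was -0.40 ± 0.11 (adjusted p = 0.0803). Down-weighting libraries by estimated quality, an alternative chosen after seeing the data, gave 18 lower and 0 higher (all genes 9.11% and 16.2%).

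Of the 11 genes, ATF5, PSAT1 and GPT2 show the order of the libraries. ATF5 had 24.2, 25.6 and 22.1 FPKM in OCI-LY19R and 225, 54.1 and 47.7 FPKM in OCI-LY19S. PSAT1 had 84.7, 67.5 and 61 FPKM in OCI-LY19R and 251, 114 and 119 FPKM in OCI-LY19S. GPT2 had 25.5, 18.4 and 17.9 FPKM in OCI-LY19R and 73.7, 34.4 and 34.7 FPKM in OCI-LY19S. In each of them the 3 OCI-LY19R libraries lay below all 3 OCI-LY19S libraries, with OCI-LY19S replicate 1 the highest. PHGDH had 41.3, 24.9 and 24.6 FPKM in OCI-LY19R and 111, 56.6 and 52.3 FPKM in OCI-LY19S (log2 change -1.20 ± 0.32, adjusted p = 0.0843), the same order with no call. The means of SHMT1 were 7.16 ± 0.56 FPKM in OCI-LY19R and 7.25 ± 0.38 FPKM in OCI-LY19S. MTHFD1 averaged 31.8 ± 0.74 FPKM in OCI-LY19R and 31.2 ± 2.6 FPKM in OCI-LY19S, and ALDH18A1 56 ± 1.5 FPKM in OCI-LY19R and 55.1 ± 4.1 FPKM in OCI-LY19S. These differences were within the spread of the libraries.

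Lists of other genes near the pathway were counted in the same fits. The shares of all genes called, against which these counts stand, were 34.5% higher and 23.7% lower in OCI-LY19, 40.4% and 14.3% in OCI-LY3, 18.6% and 19.9% in SUDHL5, and 22.9% and 9.41% in HT. Of 12 aminoacyl-tRNA synthetase genes known as ATF4 targets, all tested, 10 were lower and 1 higher in OCI-LY19, 9 lower and 1 higher in OCI-LY3, 8 lower and 1 higher in SUDHL5, and 1 lower and 1 higher in HT. GARS1 in OCI-LY19 had 12.0 ± 0.97 FPKM treated and 25.3 ± 1.3 FPKM untreated (-1.02 ± 0.09). The list median in OCI-LY19R against OCI-LY19S was -0.65, with 0 calls (8 lower and 0 higher at an unadjusted p below 0.05, all genes 8.85% and 14.6%). Of 12 further ATF4-induced genes, 11 were tested in the lines, and 5 were higher and 4 lower in OCI-LY19, 4 and 4 in SUDHL5, 7 and 2 in OCI-LY3, and 6 and 0 in HT. SESN2, a stress sestrin that p53 also induces, had 40.5 ± 0.67 FPKM in treated and 3.73 ± 0.095 FPKM in untreated OCI-LY19 cells (3.13 ± 0.11). GDF15, a secreted stress cytokine that p53 also induces, had 13.4 ± 0.47 FPKM in treated and 0.832 ± 0.05 FPKM in untreated SUDHL5 cells (2.97 ± 0.14). DDIT4, an inhibitor of mTOR signalling, had 112 ± 31 FPKM in treated and 25.9 ± 12 FPKM in untreated HT cells (2.12 ± 0.23).

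Among 16 genes of the eIF2 kinases, eIF2, eIF2B and their phosphatase, 2 were higher and 8 lower in OCI-LY19, 4 and 4 in SUDHL5, 3 and 8 in OCI-LY3, and 4 and 3 in HT. EIF2AK4, which encodes the amino acid sensor GCN2, had 3.4 ± 0.17 FPKM in treated and 1.89 ± 0.17 FPKM in untreated SUDHL5 cells (0.61 ± 0.06). Of 12 genes of the endoplasmic reticulum branches, 2 were higher and 7 lower in both OCI-LY19 and OCI-LY3, 2 and 3 in SUDHL5, and 1 and 4 in HT. HSPA5, the chaperone BiP, had 54.8 ± 20 FPKM in treated and 159.9 ± 14 FPKM in untreated OCI-LY3 cells (-1.59 ± 0.17). Of 10 tested genes of other serine, glycine, folate and methionine steps, 1 was higher and 5 lower in OCI-LY19, 1 and 4 in SUDHL5, 3 and 3 in OCI-LY3, and 3 and 1 in HT. GLDC, a subunit of the mitochondrial glycine cleavage system, had 10.6 ± 3.8 FPKM in treated and 30.5 ± 2.8 FPKM in untreated OCI-LY19 cells (-1.48 ± 0.14). In OCI-LY19R against OCI-LY19S the eIF2, endoplasmic reticulum, further ATF4-induced and serine to methionine lists had 0 calls in either direction. At an unadjusted p below 0.05 (all genes 14.6% higher and 8.85% lower) the eIF2 list had 2 higher and 1 lower, the endoplasmic reticulum list 1 higher and 0 lower, the further ATF4-induced list 0 higher and 4 lower, and the serine to methionine list 0 in either direction.

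The genes that were not tested complete the set. NUPR1, a small stress-induced chromatin protein, and STC2, a secreted glycoprotein, stayed at or below 0.254 FPKM and 0.08 FPKM in every library. CBS, which makes cystathionine, stayed below 1 FPKM. Its near-identical copy CBSL was listed at 0.889 to 1.5 FPKM in OCI-LY3 and at most 0.105 FPKM elsewhere, and reads shared by the 2 copies make both values uncertain. ASNS, the asparagine synthetase gene, was below 1 FPKM in all but 2 of the 30 libraries. Those were the treated HT replicate 3, with 1.78 FPKM against 0.559 and 0.485 FPKM in the other treated HT libraries, and OCI-LY19S replicate 1, with 2.38 FPKM against 0.328 and 0.532 FPKM in its replicates. In the GENCODE 29 annotation 44.6% of the exonic bases of ASNS also belong to exons of AC079781.5 on the same strand. How reads in shared bases were assigned is not given in the sources used here, so the ASNS values are uncertain. Antisense exons cover 33.2% of the exonic bases of MTHFD2, 31.6% of DDIT3, 23.8% of SLC1A5 and 21.2% of ATF5, and whether counting used strand is not given either.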

How the data were processed

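RNA was measured in 30 libraries. Per the submitters' processing notes, Trimmomatic, STAR, featureCounts and hg38 were used. No source used here states which gene models were counted or whether strand was used. FPKM values stand in 2 tables deposited by the authors, which were normalized separately, so no test crosses them. The authors' deposited table for OCI-LY19R against OCI-LY19S also holds a mean normalized signal, a log2 fold change with its error and statistic (each a score), and raw and adjusted p-values. No source used here names its tool.

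FPKM + 1 were put on the log2 scale and fitted with limma 3.58.1 in R 4.3.3 (variance trend), the 8 groups of the 4 lines in 1 fit with 16 residual degrees of freedom and the 6 libraries of OCI-LY19R and OCI-LY19S in another with 4. Groups of a fit share 1 spread per gene. Untreated libraries correlated with their replicates at 0.993 to 0.994 in SUDHL5 and 0.984 to 0.991 in the other lines. The p-values can therefore be too small where replicates spread more and too large in SUDHL5. SUDHL5 library names have a style of their own, which cannot be told apart from the line. Genes with at least 1 FPKM in at least 3 libraries were tested, 17645 in the lines and 12785 in the pair, and p-values were adjusted by Benjamini-Hochberg over all of them. A fold change on this scale understates the change of low genes. Values after ± are standard errors for log2 changes and SDs (n = 3) for FPKM. Values of low genes come in steps of 1 read, and whole reads were recovered within 0.01 read to give the read totals. Intervals were not computed, and read totals bear on counting error only. The fits were tested on simulated data.

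Members and lists were chosen with earlier results of these data known. A few genes of the lists are not reported here and were left out of their counts and sums. Every library's value was given for ATF4 and, per comparison, up to 5 rising and 5 falling called genes, and for single libraries that stand apart. The labels give replicate numbers and do not state pairing. Libraries of the same number deviated together in HT, where the correlations of same-numbered deviations were 0.17, 0.32 and 0.35. The main HT calls come from the fit without pairing, and the replicate block was an alternative. In the other lines and the pair, at least 1 correlation was below 0.1. No 2 libraries held identical values. Alternatives were the pseudocount, the filter, the scaling, the replicate block, the library name, fits of 1 line and each library left out.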

Additional observations from a re-analysis of the deposited data

Results flagged for a closer look

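The change after doxorubicin differed among the 4 lines for 29 of the 31 tested genes and for 72.2% of all genes tested (limma F test over the interaction terms). In 10 genes the calls had opposite directions in different lines. The share of all genes with such calls was not computed. The adjusted p-values below are of the F test, from the same fit that picked these genes, so they add no separate support. The HT calls of PHGDH and PSAT1 were lost without treated replicate 3 of HT. With median-of-ratios scaling the OCI-LY3 rise of ATF5 and both rises of MTHFD2 were lost. ATF5 was higher in OCI-LY3 and lower in SUDHL5 (adjusted p = 0.00133). PHGDH was higher in HT and lower in OCI-LY19 and SUDHL5 (2.41e-08). PSAT1 was higher in HT and lower in the other 3 lines (2.23e-05). SHMT1 was higher in OCI-LY3 and HT and lower in OCI-LY19 and SUDHL5 (3.11e-09). MTHFD2 was higher in OCI-LY3 and HT and lower in OCI-LY19 (2.77e-07). ALDH1L2 was lower in SUDHL5, through which alone it passed the filter, and was called higher in OCI-LY19 at no more than 0.25 FPKM (2.46e-10). That OCI-LY19 sign turned with quantile normalization, so this value does not bear on opposite directions. GPT2 was higher in HT and lower in OCI-LY19 and SUDHL5 (2.34e-07). CTH was higher in OCI-LY3 and HT and lower in SUDHL5 (1.98e-06). SLC38A2 was higher in OCI-LY3, HT and OCI-LY19 and lower in SUDHL5 (1.24e-05). SLC1A4 was higher in OCI-LY3 and lower in HT and OCI-LY19 (2.11e-06). What the lines differ in besides their name was not tested.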

How the results depend on the processing

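Of the recomputed summary values, 247 stayed near the reported value (a count within 1.5 times, a median within 1 SD between replicates) and 22 moved. In OCI-LY19R against OCI-LY19S that SD includes OCI-LY19S replicate 1, without which the median was -0.37. Of the recomputed values for called genes and lists, 1391 kept their call or stayed near, 60 lost the call, 38 list counts moved and 1 turned its direction (ALDH1L2 in OCI-LY19, -0.040 with quantile normalization). Genes that were not called are outside these counts, among them PPP1R15A in OCI-LY19R, which turned to 0.44 without OCI-LY19S replicate 1. The median change over the genes in OCI-LY3 was 0.15 with a pseudocount of 0.1, -0.050 with median-of-ratios scaling, -0.067 with quantile normalization and -0.049 in the fit of that line alone. In OCI-LY19 it was -0.79 with a pseudocount of 0.1. Median-of-ratios scaling gave 3 higher genes in OCI-LY3 and 6 lower in HT (all genes 4737 and 2287 of 17645). Fits of 1 line gave 5 higher in HT and 3 higher in SUDHL5. In OCI-LY19R against OCI-LY19S the lower calls numbered 0 with no filter, 3 with the replicate block and 18 with quality weights. Over all genes tested the lower calls also moved, to 55 of 34011, 140 of 12785 and 1165 of 12785 in these settings. Counts over all genes are not given here for the fits of 1 line or for the ranges that follow. Leaving out 1 library at a time gave 5 to 8 higher in OCI-LY3, 5 to 10 higher and 1 to 4 lower in HT, and 0 to 1 higher and 0 to 11 lower in OCI-LY19R. With the replicate block in HT, CEBPG was called as well (adjusted p = 0.0255), and no HT call of the main fit was lost. In lines whose replicate numbers did not pass the pairing check, the block lost PPP1R15A in OCI-LY3 (0.0685) and ATF4 in SUDHL5 (0.0893). The causes of these shifts were not tested. ASNS, CBS, NUPR1 and STC2 were too low to test, and with 3 libraries a group, 1 library can decide a call.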
